A study of Mus musculus with 7 samples.

Results

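The phagocyte NADPH oxidase was followed across the immune cells of mouse gliomas through 5 of its genes, Cybb, Cyba, Ncf1, Ncf4 and Rac2. The 5 genes were taken by name from the 55491 gene rows of the deposited single-cell matrix, whatever their levels. All 5 were measured, with 39037, 164651, 28054, 33309 and 132935 UMIs (unique molecular identifiers, 1 per captured transcript) in the order given. Levels are given as CPM, the UMIs of a gene per 1000000 UMIs of all genes, for each mouse and each cell type name of the authors.

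The cells came from 7 mice of 8 to 12 weeks that had received CT-2A cells, a mouse glioma line, into the brain. The 4 KO mice carried Sall1CreERT2, a tamoxifen-dependent recombinase driven from the Sall1 gene of microglia, together with floxed Siglece (Siglecefl/fl). The 3 WT mice carried Siglecefl/fl without the driver, and both genotypes received 2.5 mg tamoxifen per injection from day 7 after the tumour cells, daily until day 21 and on alternate days afterwards. Live cells with CD45 or CD11b or both were sorted from frozen suspensions of the tumour-bearing hemisphere and sequenced by 10x 5′ chemistry, with 1 library per mouse.

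The oxidase moves electrons from NADPH across a membrane to oxygen, which yields superoxide inside phagosomes or outside the cell. Cybb encodes its catalytic subunit, NOX2 (gp91phox), and Cyba encodes the membrane partner p22phox that stabilises it. Ncf1 (p47phox) and Ncf4 (p40phox) encode cytosolic subunits that join the membrane pair on activation, together with a GTP-bound Rac protein. Rac2 is the Rac of blood cells and also acts on the actin skeleton of lymphocytes. Cyba protein also serves other NOX enzymes. Microglia, monocytes, macrophages and neutrophils are the classical users of the complex.

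The members lie apart in the genome (GRCm38, GENCODE M21). Cybb lies on the minus strand at chrX:9435252-9487771, Cyba on the minus strand at chr8:122424776-122432930 and Ncf1 on the minus strand at chr5:134220053-134229625. Ncf4 on the plus strand at chr15:78244801-78262580 and Rac2 on the minus strand at chr15:78559167-78572783 share a chromosome. The Ncf1 span overlaps Gtf2ird2 on the opposite strand at chr5:134220053-134224355. Gtf2ird2 held 1520 UMIs in all, and the use of strand in the counting is not given in the sources used here.

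The RefSeq table of promoters (GRCm38.p6) held 3 of the 5 members. Their 250 bases before the start are shown because Cybb and Cyba, whose proteins form a single membrane pair, had their highest mean levels in different cell types below. Ncf1 had its highest mean in the same cells as Cybb. In the main fit below, Cybb was not called between the cell type of its own highest mean and that of Cyba. Each promoter is printed along the gene strand, and capitals mark the motifs found.
Cybb, chrX:9469325-9469574, minus strand: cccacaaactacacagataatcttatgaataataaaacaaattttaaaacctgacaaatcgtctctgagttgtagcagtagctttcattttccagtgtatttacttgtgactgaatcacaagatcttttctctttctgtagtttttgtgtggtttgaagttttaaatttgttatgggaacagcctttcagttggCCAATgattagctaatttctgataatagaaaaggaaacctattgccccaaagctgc
Cyba, chr8:122432941-122433190, minus strand: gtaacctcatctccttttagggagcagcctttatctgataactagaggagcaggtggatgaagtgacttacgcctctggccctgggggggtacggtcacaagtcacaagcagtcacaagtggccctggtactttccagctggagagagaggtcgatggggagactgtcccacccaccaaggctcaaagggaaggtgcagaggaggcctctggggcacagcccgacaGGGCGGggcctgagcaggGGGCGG
Ncf1, chr5:134229626-134229875, minus strand: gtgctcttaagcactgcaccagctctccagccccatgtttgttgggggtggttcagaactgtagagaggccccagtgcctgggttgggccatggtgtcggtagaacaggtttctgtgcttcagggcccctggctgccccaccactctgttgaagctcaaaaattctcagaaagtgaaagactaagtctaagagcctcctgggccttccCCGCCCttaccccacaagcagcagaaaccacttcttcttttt
The motifs searched on both strands were CCAAT, the GC box GGGCGG and the purine box GAGGAA bound by ETS factors such as PU.1. Cybb held CCAAT at bases -56 to -52 and no GC box. Cyba held the GC box at -24 to -19 and at -6 to -1, and Ncf1 held it on the reverse strand at -42 to -37. None of the 3 windows held GAGGAA. Of 32851 promoter windows of this length, 33.8% held CCAAT, 32.7% the GC box and 23.3% GAGGAA, so these matches are common. The Cybb window lies inside the longer GENCODE span of the gene.

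The libraries held 28644 cells, from 1410 in KO 1 to 5856 in KO 4, with a median of 4479 to 9554 UMIs per cell, and 926 cells carried a barcode found in more than 1 library. The 23 cell type names of the authors were also joined into 9 classes. Of the markers listed for each class, 8 of 9 had their highest level in microglia, 7 of 7 in plasmacytoid dendritic cells (pDCs), 7 of 7 in T cells, 6 of 6 in NK cells, 7 of 7 in B cells and 4 of 10 in monocyte-derived cells. No name stood for neutrophils, a main site of the oxidase. In microglia Siglece gave 2, 1, 0 and 0 UMIs in KO 1 to 4 and 20, 19 and 7 in WT 1 to 3. Per total UMIs this was 10.7, 19.6, 0 and 0 CPM in KO against 36.1, 45.9 and 18.6 in WT, so that KO 2, with its 1 UMI, lay above WT 3 and the groups overlapped. In monocyte-derived cells, where the design deletes nothing, it gave 41.0 to 48.7 CPM in KO and 26.6 to 52.9 in WT libraries. KO 3 held 13 microglia and is left out of microglial values, which need 20 cells per library.

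Cybb was highest in pDCs and in monocytes, and among its lowest levels in conventional dendritic cells (cDCs), NK cells and tumour cells. The pDCs, which produce interferon on sensing nucleic acids, held 919 ± 121 CPM (SD, n = 7 libraries), from 764 through a median of 937 to 1106. The authors' Monocytes (P1-P2) held 679 ± 86.7 (n = 7), from 572 through 666 to 821. Only the highest monocyte library reached into the range of the pDCs. Macrophages (P3) held 505 ± 110 and Macrophages (P5) 483 ± 58.3 (n = 7 each), which did not differ beyond their spread. Macrophages (Proliferating) followed with 349 ± 63.3 (n = 6) and monocyte-derived dendritic cells (mo-DCs) with 266 ± 54.5 (n = 7). The authors' Microglia held 199 ± 97.3 (n = 3 WT libraries), B cells 183 ± 52.4 (n = 6) and Microglia (Low-quality/activated) 181 ± 105 (n = 5), an order within their spread. The next level down, 44.4 ± 9.28 in Tregs, lay apart from these by more than both spreads. The other T cell names held 6.09 to 35.3, cDC2 26.5 ± 10.2, cDC1 16.6 ± 5.60, NK cells 9.45 ± 5.31 and tumour or stromal cells 5.36 ± 3.49 (n = 5).

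Cyba was high across myeloid cells and present in every lymphocyte population. Monocytes (P1-P2) held 1509 ± 101 and Macrophages (P3) 1506 ± 67.8 CPM, with Macrophages (P5) at 1405 ± 74.9 (n = 7 each). The authors' Microglia were close behind at 1297 ± 41.3 (1344, 1266 and 1282 in WT 1 to 3), in contrast to their low Cybb. Levels then ran from 1193 ± 154 in Macrophages (Proliferating) through 1083 ± 95.4 in cDC2, 858 ± 45.8 in mo-DCs and 773 ± 60.8 in cDC1 to 661 ± 162 in pDCs. Tregs held 659 ± 153, NK cells 566 ± 82.1, B cells 487 ± 121 and the other T cell names 333 to 552. Microglia (Low-quality/activated) held 271 ± 72.2 (n = 5), below every lymphocyte name. Tumour or stromal cells, at 24.6 ± 11.1, were the only population with little Cyba.

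Ncf1 was led by pDCs and cDC2. The pDCs held 496 ± 131 CPM, from 339 through 483 to 672, and cDC2, which present antigen to CD4 T cells, held 446 ± 74.7, from 309.6 through 446 to 560.03 (n = 7 each). These ranges overlapped, and both means lay above that of Monocytes (P1-P2), 241 ± 36.4. Microglia held 327 ± 94.3 (405, 222 and 353 in WT 1 to 3) and their low-quality counterparts 243 ± 60.7. The mo-DCs (227 ± 40.4), Macrophages (P3) (213 ± 18.2) and Macrophages (P5) (211 ± 30.0) could not be ordered beyond their spread. cDC1, which cross-present antigen to CD8 T cells, held 144 ± 28.4 and B cells 84.5 ± 40.6. Among T cells the exhausted (58.8 ± 25.9) and precursor-exhausted CD8 cells (46.5 ± 18.0) stood highest, and the others held 13.3 to 29.9.

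Ncf4 was spread more evenly over myeloid cells, NK cells and T cells than Cybb or Ncf1, and was lowest among immune cells in cDC2. Monocytes (P1-P2) held 305 ± 100.2 CPM, from 192 through 293 to 426, followed by Macrophages (P3) at 268 ± 87.6, Macrophages (P5) at 212 ± 63.5 and Macrophages (Proliferating) at 198 ± 64.3. The authors' Microglia held 197 ± 79.2, mo-DCs 183 ± 82.9, cDC1 176 ± 48.6 and NK cells 167 ± 37.6. No neighbours in the order of the first 21 names differed beyond their spread, since the mice themselves differed widely. T cell names held 77.9 to 145, pDCs 75.6 ± 39.2 and B cells 72.8 ± 20.5. cDC2 held 31.3 ± 16.0 and tumour or stromal cells 2.92 ± 1.62.

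Rac2 followed lymphocytes. Th1 cells held 1469 ± 94.9 CPM, from 1403 through 1423 to 1649 (n = 6), Tregs 1331 ± 136 and follicular helper (Tfh) cells 1292 ± 113. The CD8 names ranged from 1022 in naive or early activated cells to 1275 in exhausted cells. The pDCs, at 1062 ± 100.4, and NK cells, at 993 ± 64.3, lay among the T cells. B cells held 466 ± 113. Monocytes, macrophages, mo-DCs and the authors' Microglia held 243 to 363, with Monocytes (P1-P2) at 243 ± 24.2. cDC1 (156 ± 32.3) and cDC2 (53.8 ± 27.3) were lower than these. Rac1, the relative of Rac2 that most tissues use, ranged only from 180.3 to 581, a ratio of 3.22 against 130.5 for Rac2.

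**Figure D1:**
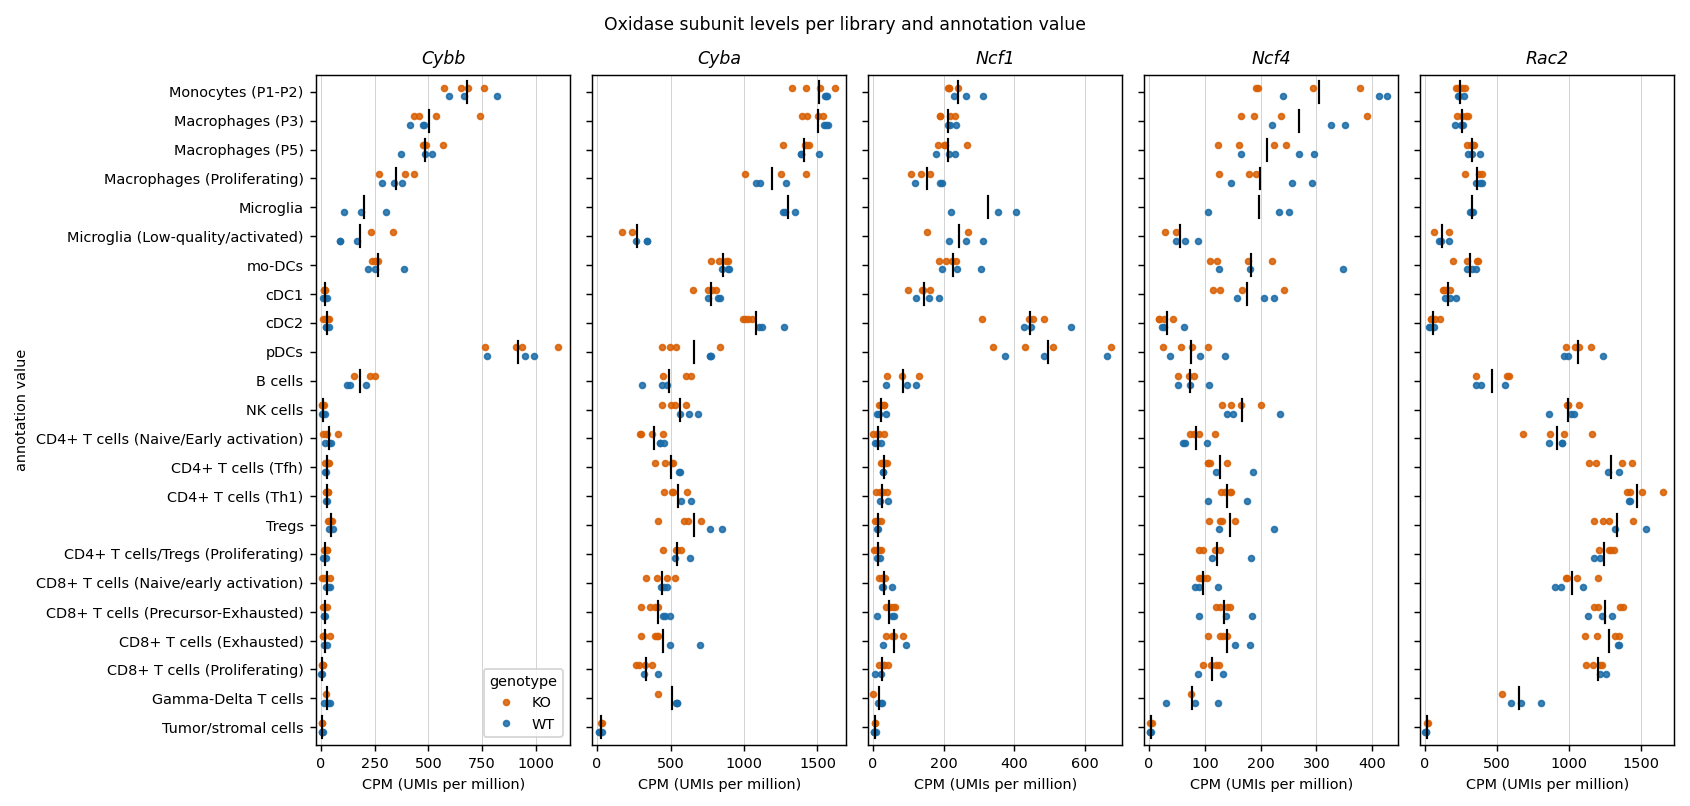
CPM (x axis, linear, 1 panel per gene with its own scale) of the 5 oxidase genes in each cell type name (y axis); points are libraries with at least 20 cells of that name, coloured by genotype, and black ticks are means over libraries. Cybb peaks in pDCs at 919, Cyba in Monocytes (P1-P2) at 1509, Ncf1 in pDCs at 496, Ncf4 in Monocytes (P1-P2) at 305 and Rac2 in Th1 cells at 1469.

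The pDCs, highest in Cybb and Ncf1, thus stood low in Ncf4, and cDC2, second in Ncf1, stood low in Cybb and Ncf4.

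Monocyte-derived cells made up 26.1% of cells and held more of the UMIs of 4 members than any other class. The class held 71.1% of all Cybb UMIs, 47.8% of Cyba, 42.0% of Ncf1 and 42.1% of Ncf4. T cells made up 47.8% of cells and held 70.2% of Rac2 UMIs but 3.90% of Cybb. The pDCs were 1.89% of cells and held 7.91% of Cybb and 6.12% of Ncf1.

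To compare cells of different depth, each cell was thinned to 3754 UMIs, and shallower cells (4605 of 17315 KO and 2555 of 11329 WT cells) were left out. A library counted for a name only with at least 20 cells of it left, and thinned shares cover only names with such a library. After thinning, a Cybb UMI was found in 94.3% ± 3.15 of pDCs (SD, n = 7), 82.0% ± 6.17 of Monocytes (P1-P2), 79.1% ± 4.77 of Macrophages (P5), 39.2% ± 4.66 of the authors' Microglia (n = 3) and 52.0% ± 23.6 of B cells (n = 3). It was found in 7.93% ± 4.74 of cDC2, 5.56% ± 1.90 of cDC1, 3.19% ± 1.11 of NK cells and 1.36% ± 1.74 of tumour or stromal cells. Without thinning the share in cDCs as a class was 15.6%, at a median of 11239 UMIs per cell against 6245 in monocyte-derived cells, where it was 85.5%. A Cyba UMI was found in 68.3% to 99.6% of cells of every name so covered except tumour or stromal cells, at 8.61% ± 3.66. Ncf4 was found in 47.1% ± 8.18 of cDC1 and 8.47% ± 8.11 of cDC2, and Rac2 in 40.0% ± 6.79 and 15.3% ± 4.44 of the same. Ncf1 went the other way, at 36.6% ± 5.30 of cDC1 and 77.0% ± 7.98 of cDC2.

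**Figure D2:**
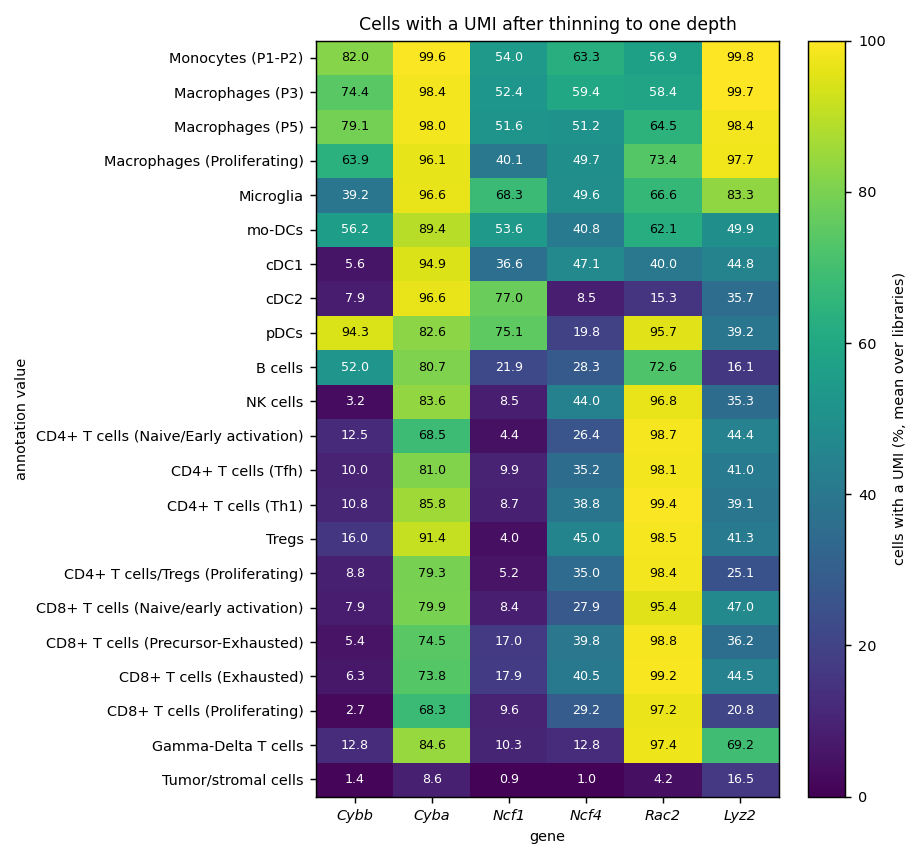
Percent of cells with a UMI (mean over libraries, colour and printed value) for the 5 members and Lyz2 (x axis) by cell type name (y axis), after each cell was thinned to 3754 UMIs. Names and libraries with at least 20 cells left are used. Rac2 is found in 95.4% to 99.4% of cells of every T cell name, while Cybb reaches 16.0% in none but Tregs among T cells.

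Free RNA from lysed cells gives UMIs in droplets of other cells, and Lyz2, a gene of monocytes and macrophages, was taken as a gauge of it: after thinning it was found in 20.8% to 69.2% of cells of the T cell names. The oxidase UMIs per Lyz2 UMI are therefore given by class. For Cybb this ratio was 0.0794 in monocyte-derived cells (range over libraries 0.0582 to 0.1097), 0.0816 in cDCs (0.0655 to 0.0963), 0.0740 in NK cells (0.0385 to 0.137) and 0.0699 in tumour or stromal cells (0.0432 to 0.107), over libraries with at least 20 cells of the class. The ranges of these 3 classes overlap that of monocyte-derived cells. The ratio was 0.167 in T cells (0.106 to 0.355), where the lowest library also fell in the monocyte-derived range. It was 2.60 in B cells (0.571 to 9.25) and 7.05 in pDCs, where the lowest library gave 2.35. Ncf4 gave 1.06 per Lyz2 UMI in T cells and 1.66 in NK cells against 0.0365 in monocyte-derived cells, and Rac2 gave 10.4 in T cells against 0.0462. Ncf1 gave 0.952 in cDCs against 0.0324. The part of free RNA in these levels was not tested.

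**Figure D3:**
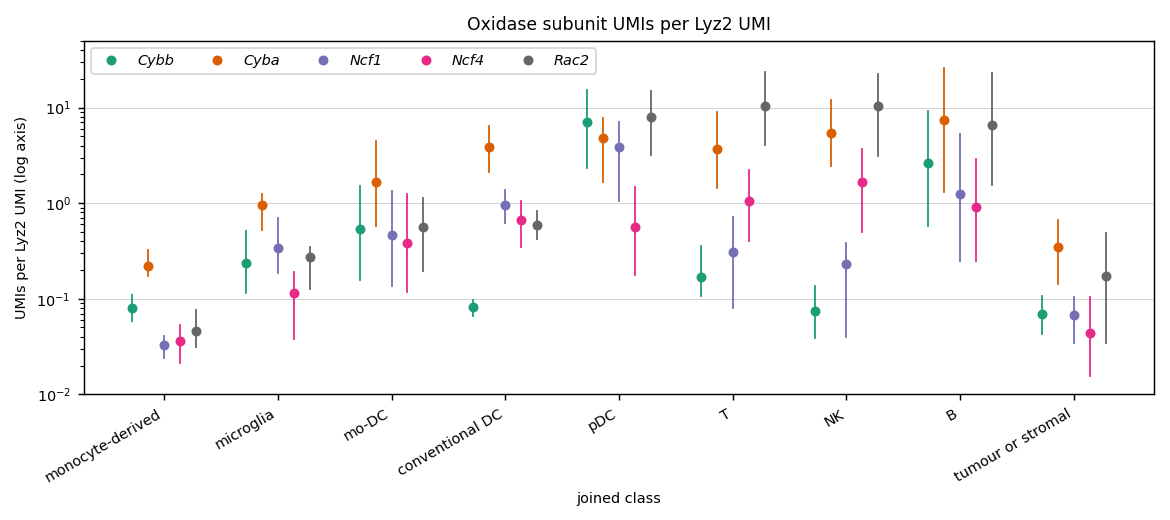
UMIs of each member per Lyz2 UMI (y axis, log scale) in the 9 joined classes (x axis); points are means over libraries with at least 20 cells and lines run from the lowest to the highest library. Cybb in cDCs and NK cells, at 0.0816 and 0.0740, sits at the monocyte-derived value of 0.0794, and in pDCs it sits at 7.05.

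At the thinned depth, all 5 members were found together in 17.2% ± 5.87 of Monocytes (P1-P2), 15.1% ± 4.37 of Macrophages (P3), 14.5% ± 5.24 of Macrophages (P5) and 13.001% ± 6.87 of pDCs (n = 7 each). The share was 7.67% ± 3.42 in mo-DCs and 5.55% ± 5.38 in the authors' Microglia (n = 3). It was at most 0.57% in every T cell name, in NK cells and in both cDC names. These shares depend on depth: at 5645 UMIs the share in Monocytes (P1-P2) was 34.6%. In tumour or stromal cells 86.8% of cells had none of the 5.

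Differences between populations of the same mice were tested with edgeR (quasi-likelihood, mouse as a block, Benjamini-Hochberg over all genes tested) on UMIs summed per mouse and population. The authors named the cells of these same libraries, so a gene used in the naming had to differ. The summed values cannot tell fewer expressing cells from less RNA per cell. Each log2 fold change is the first population over the second, and a member is called at an adjusted p under 0.05.

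From monocytes to macrophages the catalytic subunit gene Cybb was lower, and in Macrophages (P3) the calls of the cytosolic subunits Ncf1 and Ncf4 depended on the fit. In Macrophages (P3) against Monocytes (P1-P2), 3 of 5 members were called, all lower, where 22.6% of all genes tested were called and 12.4% were lower. Cybb differed by -0.50 ± 0.08 (log2 ± SE, edgeR adjusted p = 2.66e-05), Ncf4 by -0.24 ± 0.07 (0.0168) and Ncf1 by -0.23 ± 0.08 (0.0315). Cyba (-0.05) and Rac2 (-0.01) were not called, and both change sign when library totals replace TMM scaling, to 0.00098 and 0.04. The Ncf4 call ended with library totals (-0.19, edgeR adjusted p = 0.0527) and with no mouse block (0.533). The Ncf1 call ended with library totals (-0.18, edgeR adjusted p = 0.0831), with no mouse block (0.233), in DESeq2 (0.0564), and without WT 1 (0.109) or WT 3 (0.0746). In Macrophages (P5) all 5 were called, where 43.2% of genes were. Ncf4 was lower by -0.66 ± 0.08 (2.23e-06), Cybb by -0.64 ± 0.08 (1.98e-06), Ncf1 by -0.34 ± 0.09 and Cyba by -0.24 ± 0.07, while Rac2 was higher by 0.27 ± 0.08 (0.0123). With library totals the P5 calls of Cyba (-0.10, edgeR adjusted p = 0.23) and Ncf1 (-0.20, 0.0616) ended. The Cyba call also ended without a filter on low counts (edgeR adjusted p = 0.0757), and the Rac2 call in the WT libraries alone (0.22, 0.159).

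Microglia held less of every member than monocyte-derived cells except Ncf1. Over 3 KO and 3 WT mice, 4 of 5 members were called, all lower, where 44.5% of genes were called and 23.3% were lower. Cybb lay at 203 ± 90.0 CPM in microglia (SD, n = 6 libraries) and at 517 ± 78.5 in monocyte-derived cells (n = 7), a log2 change of -1.66 ± 0.18 (edgeR adjusted p = 6.24e-12). Ncf4 differed by -1.39 ± 0.18 (5.96e-10), Cyba by -1.10 ± 0.17 (9.93e-08) and Rac2 by -0.65 ± 0.16 (0.000664), whose call ends with library totals in place of TMM scaling (-0.30, 0.103). Ncf1 differed by 0.16 ± 0.16 (0.42), and by 0.51 (0.00327) with those totals, which shift the median of all genes by 0.33. The microglial class mixes 2 names of unequal quality. The authors' Microglia alone, in the 3 WT libraries and chosen after the values were seen, differed from monocyte-derived cells by -1.59 ± 0.16 for Cybb, -0.74 ± 0.17 for Ncf4 and -0.38 ± 0.13 for Cyba. There 3 of 5 members were called where 21.0% of genes were and 12.1% were lower, and Rac2 (-0.08 ± 0.15, edgeR adjusted p = 0.814) and Ncf1 (0.34 ± 0.16, 0.119) were not.

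The microglial names differed from each other in all 5 members, least firmly in Ncf1. In the 3 WT libraries, and in a comparison added after the values were seen, Microglia exceeded Microglia (Low-quality/activated) by 2.40 ± 0.19 for Cyba (edgeR adjusted p = 1.36e-10), 1.90 ± 0.32 for Ncf4, 1.73 ± 0.23 for Rac2, 1.17 ± 0.26 for Cybb and 0.68 ± 0.22 for Ncf1 (0.0107). All genes tested were called in 54.8% of cases there, and 29.1% were higher. Library totals in place of TMM shift the median of all genes by -0.40 and end the call of Ncf1 (0.28, edgeR adjusted p = 0.266), and DESeq2 (0.64, 0.127) and leaving out WT 1 (0.33, edgeR adjusted p = 0.321) end it too.

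The mo-DCs held less than Monocytes (P1-P2) of Cybb (-1.54 ± 0.08, edgeR adjusted p = 3.39e-11), Cyba (-0.99 ± 0.07), Ncf4 (-0.95 ± 0.10) and Ncf1 (-0.27 ± 0.08, 0.00668), so that 4 of 5 were called, all lower, where 51.7% of genes were called and 26.2% lower. The Ncf1 call ended with library totals (-0.08, edgeR adjusted p = 0.347), without a filter on low counts (0.083) and with no mouse block (0.0852). Rac2 differed by 0.16 ± 0.11 (edgeR adjusted p = 0.243). It was called as higher without KO 3 (0.27, 0.031), with library totals (0.34, 0.0126) and without a filter on low counts (0.23, 0.0361). Against cDC2, mo-DCs held more Cybb (3.30 ± 0.14, 4.72e-13), Rac2 (2.57 ± 0.18) and Ncf4 (2.46 ± 0.11) and less Ncf1 (-1.05 ± 0.09) and Cyba (-0.41 ± 0.08), with 5 of 5 called where 65.0% of genes were. cDC1 against cDC2 likewise had 5 of 5 called, where 69.8% of genes were. Ncf4 was higher in cDC1 by 2.41 ± 0.14 (5.25e-11) and Rac2 by 1.53 ± 0.20, and Ncf1 was lower by -1.73 ± 0.08 (2.67e-12), Cyba by -0.58 ± 0.08 and Cybb by -0.70 ± 0.20. The Cybb levels of both cDC names are low, and their Cybb per Lyz2 UMI, given above for the 2 names joined, lay in the range of monocyte-derived cells.

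The pDCs held more of some members and less of others than monocytes. Against Monocytes (P1-P2), in a comparison added after the values were seen, Rac2 was higher by 1.84 ± 0.10 (edgeR adjusted p = 1.01e-13) and Ncf1 by 0.72 ± 0.12 (9.01e-06). Ncf4 was lower by -2.41 ± 0.15 (9.41e-13) and Cyba by -1.50 ± 0.11, so that 4 of 5 members were called where 61.2% of genes were. Cybb differed by 0.15 ± 0.09 (0.166), and by 0.44 (0.000158) with library totals, which shift the median of all genes by 0.30. In each of the 7 mice the pDC level of Ncf4 was below that of its monocytes, for example 24.2 against 192 CPM in KO 1 and 136 against 412 in WT 3.

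Lymphocytes differed in which members they held. B cells against T cells (3 KO and 3 WT mice) had 4 of 5 members called where 31.8% of genes were: Cybb higher by 3.17 ± 0.22 (edgeR adjusted p = 2.31e-08), Ncf1 higher by 1.33 ± 0.26, Rac2 lower by -1.23 ± 0.16 and Ncf4 lower by -0.64 ± 0.19 (0.0181). The Ncf4 call was lost in 5 of the 6 fits that left out 1 mouse, with adjusted p from 0.0524 to 0.119 in those, without the cells of highest UMI count (-0.15, 0.663) and in the WT libraries alone (-0.43, 0.611). B cell Cybb lay at 250 (KO 2), 228 (KO 3), 156 (KO 4), 208 (WT 1), 121 (WT 2) and 137 (WT 3) CPM, above the T cells of every mouse, which held 13.2 to 33.8. NK cells against T cells had 5 of 5 called where 32.9% of genes were: Cyba (0.33 ± 0.06) and Ncf4 (0.43 ± 0.08) higher, and Cybb (-1.28 ± 0.20), Ncf1 (-0.55 ± 0.17) and Rac2 (-0.27 ± 0.05) lower. The Ncf1 call rested on KO 1, KO 4 and WT 3, with edgeR adjusted p = 0.0786, 0.0718 and 0.0588 without each, and ended in DESeq2 (0.0593) and with no mouse block (0.126). The Cyba call also ended with no mouse block (edgeR adjusted p = 0.0641). In the WT libraries alone the calls of Cyba, Ncf1, Ncf4 and Rac2 ended (edgeR adjusted p = 0.226, 0.486, 0.0794 and 0.261). Exhausted against naive or early activated CD8 cells (4 KO and 2 WT mice) had 3 of 5 called, all higher, where 20.7% of genes were called and 9.82% higher: Ncf1 higher by 0.85 ± 0.17 (0.000206), Ncf4 by 0.44 ± 0.11 and Rac2 by 0.24 ± 0.06. The Rac2 call ended with no mouse block (edgeR adjusted p = 0.0826). In the 2 WT libraries alone the calls of Ncf1, Ncf4 and Rac2 ended (edgeR adjusted p = 0.463, 0.0773 and 0.0600). Cybb (-0.46 ± 0.21, 0.134) and Cyba (-0.09 ± 0.11, 0.617) were not called.

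**Figure D4:**
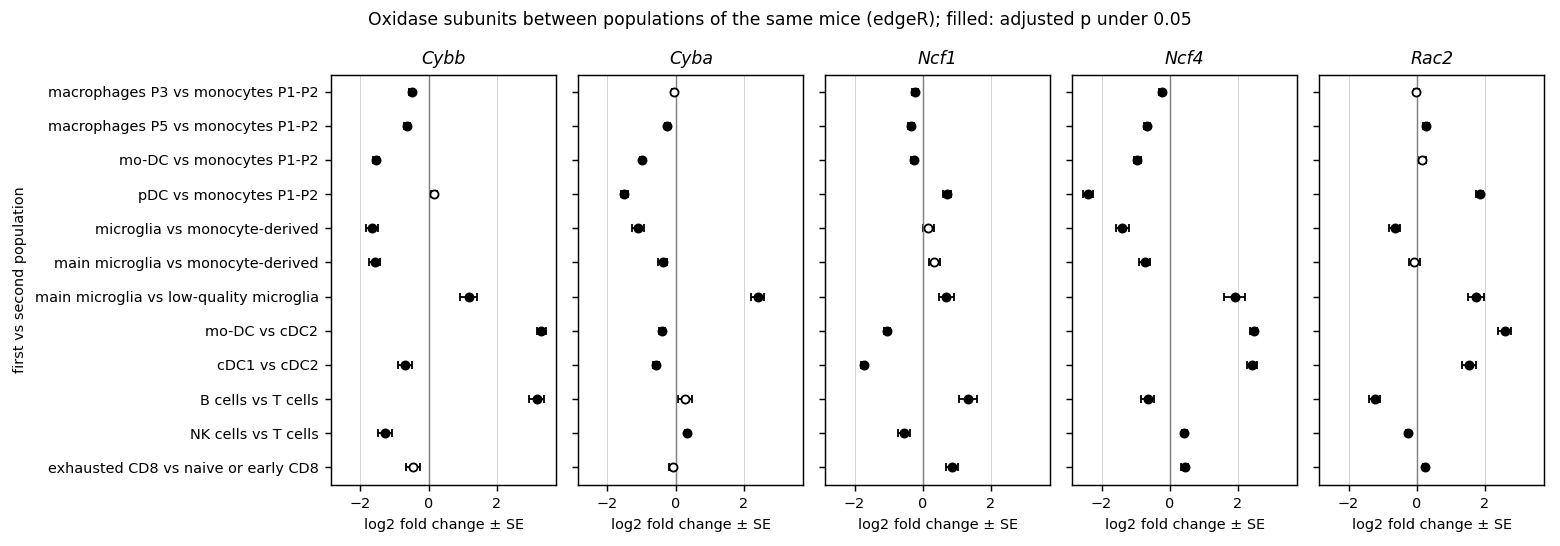
Log2 fold changes (x axis, points with SE bars from edgeR, first population over second) of the 5 members in 12 comparisons between populations (y axis); filled points have an adjusted p under 0.05, and the 2 rows that begin with main microglia use the 3 WT libraries. Between mo-DC and cDC2, Cybb stands at 3.30 and Ncf1 at -1.05, and between pDC and monocytes Rac2 stands at 1.84 and Ncf4 at -2.41.

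The partners and regulators of the oxidase were counted in the same fits, from a list of 11 that includes Rac1. In microglia against monocyte-derived cells 4 were higher and 4 lower of 11 tested, where 44.5% of all genes were called (median log2 0.05, against -0.01 over all genes): the kinase gene Prkcb (1.06) and Hvcn1 (0.82), the proton channel that balances the charge of the oxidase, were higher, and Arhgdib (-1.16), which holds Rac proteins inactive, was lower. In the authors' Microglia alone 3 were higher and 2 lower of 11, where 21.0% of genes were called: Arhgdib differed by -0.41, Prkcb by 0.56 and Hvcn1 by 1.05, and Rac1, called at -0.89 in the whole class, was not (-0.33, edgeR adjusted p = 0.0967). In pDCs against monocytes 4 were higher and 4 lower of 11, where 61.2% of genes were called, with Hvcn1 (2.11) and Prkcb (1.88) higher and Pla2g4a (-3.77) and Rac1 (-1.25) lower. In mo-DCs against cDC2 7 were higher and 3 lower of 11, where 65.0% of genes were called, with Prkcb (3.39) and the kinase gene Pak1 (2.28) higher and Hvcn1 (-2.05) lower. In B against T cells 3 were higher and 2 lower of 10, where 31.8% of genes were called, with Hvcn1 (2.17) and Prkcd (1.41) higher. The lower genes were Arhgdib (-0.49) and Rac1 (-0.58, edgeR adjusted p = 0.0236). The Rac1 call was lost in 8 of 14 alternative fits, with edgeR adjusted p from 0.0537 to 0.324 in those. The 9 other NADPH oxidase genes and their own partners, such as Nox4 and Duox1, passed the filter on low counts in none of these comparisons between populations.

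A list of 19 antioxidant genes was counted in the same way. In microglia against monocyte-derived cells 1 of 17 was higher and 11 were lower, where 44.5% of all genes were called and 23.3% lower (median log2 -1.11, against -0.01 over all genes), among them the peroxiredoxin genes Prdx6 (-2.46) and Prdx5 (-2.09) and the thioredoxin gene Txn1 (-1.90). Gclc (1.50), which limits glutathione synthesis, was the higher gene. In the authors' Microglia alone 1 was higher and 7 lower of 17, where 21.0% of genes were called and 12.1% lower. Prdx6 stood at -2.35, Prdx5 at -1.54 and Txn1 at -1.37. In Macrophages (P5) against Monocytes (P1-P2) 3 of 17 were higher and 9 lower, where 43.2% of genes were called, led by Gsr (-2.71). In pDCs against monocytes 1 of 17 was higher and 12 were lower, where 61.2% were called, led by the cystine transporter gene Slc7a11 (-6.36). Of the 8 myeloid transcription factors listed, 7 were tested in these fits. In microglia 0 were higher and 2 lower of 7, where 44.5% of genes were called: Cebpb (-1.48) and Spi1, which encodes PU.1 (-0.78). In pDCs against monocytes 2 were higher and 4 lower of 7, where 61.2% of genes were called: Irf8 (3.15) and Elf1 (0.88) were higher and Cebpb (-4.13), Spi1 (-3.15), Cebpa (-2.52) and Irf2 (-1.64) lower.

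Over the 23 names, which share libraries and any free RNA in them, Cyba and Ncf4 had like profiles (Pearson r = 0.84 on log2 of the mean level plus 1), as did Cybb and Ncf1 (0.75). Cybb and Cyba stood at 0.60. By Spearman's rho this order turned, with 0.63 for Cybb and Cyba and 0.61 for Cybb and Ncf1. By Pearson's r Rac2 stood at -0.07 with Cybb and -0.25 with Ncf1. Ncf4 and Rac2 stood at 0.60 by Pearson's r and 0.02 by Spearman's rho. Of 10708 genes with at least 1000 UMIs, the 3 most like each member were Cyp4f18 (0.90), Sirpa (0.90) and Zfp691 (0.89) for Cybb, Ucp2 (0.93), Vamp8 (0.87) and Stxbp2 (0.87) for Cyba, and Prkcd, Csf2rb2 and Icosl (0.92 each) for Ncf1. Prkcd encodes a kinase known to phosphorylate p47phox. For Ncf4 they were Hcls1 (0.94), Pycard (0.90) and Slfn2 (0.88), and for Rac2 Ebpl (0.95), Def6 (0.93) and Sash3 (0.92). Among the listed factors Cybb was most like Cebpa (0.87) and Ncf1 most like Spi1 (0.83), while Rac2 was most like Elf1 (0.77) and ran against Spi1 (-0.44). By Spearman's rho Ncf1 was most like Cebpa (0.76, against 0.72 for Spi1), and 13 of these 15 like genes were not among the 3 most like. These are descriptions over names, with no test.

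The genotypes were compared to see whether members differed when Siglece, an inhibitory receptor gene, is deleted in microglia. Every KO mouse carried the recombinase driver and no WT mouse did, so the driver and the loss of Siglece cannot be told apart. In the 9 classes, edgeR called 0 of 41 member tests at an adjusted p under 0.05, with 4 at an unadjusted p under 0.05, and DESeq2 called 0. At the adjusted p, all genes were called in 0.0415% of cases in microglia, 0.045% in pDCs, 0.0288% in tumour or stromal cells, 0.0141% in NK cells and 0% in the other 5 classes. Over the 21 names that could be fitted, 0 of 97 member tests were called, where 0.0166% of all gene tests were called. The authors' Microglia were not among these 21, with 10, 7, 0 and 15 cells in KO 1 to 4, so no KO library held enough cells. Their genotype difference was thus not tested by name, and their cells entered only the joined microglial class. Microglia (Low-quality/activated), with 2 KO and 3 WT libraries, was the only microglial name fitted. An unadjusted p under 0.05 was found in 6 of the 97. The share of all genes at an unadjusted p under 0.05 is not given here, for these 6 or for the 4 above. The SE of the member log2 changes had a median of 0.23 in the classes.

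In monocyte-derived cells, the bulk of the phagocytes, no member was called between the genotypes. Cybb lay at 464, 505, 655 and 520.3 CPM in KO 1 to 4 and at 566, 406 and 499 in WT 1 to 3, and Cyba at 1389, 1487, 1346 and 1438 against 1417, 1441.5 and 1511. Both genotypes overlapped in both genes. The log2 changes, KO over WT, were 0.14 ± 0.16 for Cybb, -0.03 ± 0.13 for Cyba, -0.07 ± 0.15 for Ncf1, -0.36 ± 0.29 for Ncf4 and 0.01 ± 0.13 for Rac2, with edgeR adjusted p from 0.921 to 0.993. The signs of Cyba, Ncf1 and Rac2 turned under other settings.

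Ncf4 had the largest difference in microglia and did not pass. Its level was 53.6, 39.1 and 66.6 CPM in KO 1, 2 and 4, from 10, 2 and 12 UMIs, and 177, 101 and 196 in WT 1 to 3, from 98, 42 and 74 UMIs. Each KO library lay below each WT library, and counts this low carry a wide counting error. The log2 change was -1.47 ± 0.35 (edgeR adjusted p = 0.0745). Over the settings tried, the adjusted p ran from 0.00362 in edgeR without a filter on low counts to 0.336 in DESeq2. Without WT 2 it was 0.02 in edgeR. The shares of all genes called in these settings are not given here. Cyba also lay apart, at 739, 763 and 644 against 982, 1036 and 1026, with a log2 change of -0.53 ± 0.23 (edgeR adjusted p = 0.358). So 2 of 5 members did not overlap between the genotypes, both lower in KO, where 9.75% of all genes were so. Cybb (0.57 ± 0.35), Ncf1 (-0.10 ± 0.26) and Rac2 (-0.46 ± 0.26) overlapped, with adjusted p from 0.478 to 0.915.

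The makeup of the microglia differed between mice, with no test of its relation to genotype. Low-quality or activated cells were 66.7%, 66.7% and 69.4% of microglia in KO 1, 2 and 4 and 61.1%, 47.8% and 59.4% in WT 1 to 3 (all 13 in KO 3), and these cells held less Cyba and Ncf4 than the others, as given above. Within them Cyba lay at 236 and 172 in KO 1 and 4 and at 264, 340.5 and 341 in WT 1 to 3, and Ncf4 at 27.8 and 49.1 against 64.6, 87.6 and 48.7. Cybb lay the other way, at 333 and 233 against 86.2, 87.6 and 166, a log2 change of 1.33 ± 0.39 (edgeR adjusted p = 0.203). Cyba and Cybb thus did not overlap between the 2 KO and 3 WT libraries of this name. The share of all genes without overlap there is not given here. Summed T cell markers in microglia were 96.5 to 139 CPM in KO and 12.6 to 43.5 in WT libraries, and all 8 dissociation stress genes together were 16736 to 18672 and 13914 to 19767. The part of these in the Ncf4 and Cyba differences was not tested.

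The difference between the classes was tested as well. The KO effect in microglia minus that in monocyte-derived cells was -0.97 ± 0.36 for Ncf4 (edgeR adjusted p = 0.255), -0.62 ± 0.27 for Cyba (0.354), -0.56 ± 0.28 for Rac2, 0.49 ± 0.30 for Cybb and -0.01 ± 0.27 for Ncf1. No member was called, where 0.373% of all genes were called. An unadjusted edgeR p under 0.05 was found for 3 of 5 members, and the share of all genes at that threshold is not given here. DESeq2 called 1 member, Cyba (-0.67, adjusted p = 0.0385). The share of all genes that DESeq2 called there is not given here.

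Ncf4 differed among mice of the same genotype in much the same order in several myeloid classes. In monocyte-derived cells it lay at 136, 176, 311 and 241 CPM in KO 1 to 4 and 318, 188 and 326 in WT 1 to 3. In mo-DCs it lay at 123, 109, 220.1 and 177 against 181, 125 and 348, and in cDCs at 96.1, 98.4, 193 and 131 against 185, 126 and 180.1. KO 1, KO 2 and WT 2 were thus the 3 lowest mice in all of these, and KO 3, WT 1 and WT 3 the 3 highest. The pDCs repeated this (24.2, 57.5, 106 and 76.4 against 90.4, 38.2 and 136). T cells did not, where Ncf4 ran from 108 to 134 in 6 mice and reached 173 in WT 3. In microglia, where KO 3 is left out, KO 1 and KO 2 were again the lowest and WT 1 and WT 3 the highest. There KO 4 lay below WT 2, unlike in these classes. The part of this order in the microglial Ncf4 difference was not tested. Since Ncf4 and Rac2 share a chromosome, Rac2 in monocyte-derived cells is given beside it: 327, 289, 307 and 263 against 327, 267 and 292, with no such order. KO 1, KO 2 and WT 3 were female by Xist and the other mice male, and the cause of the Ncf4 order was not tested.

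**Figure D5:**
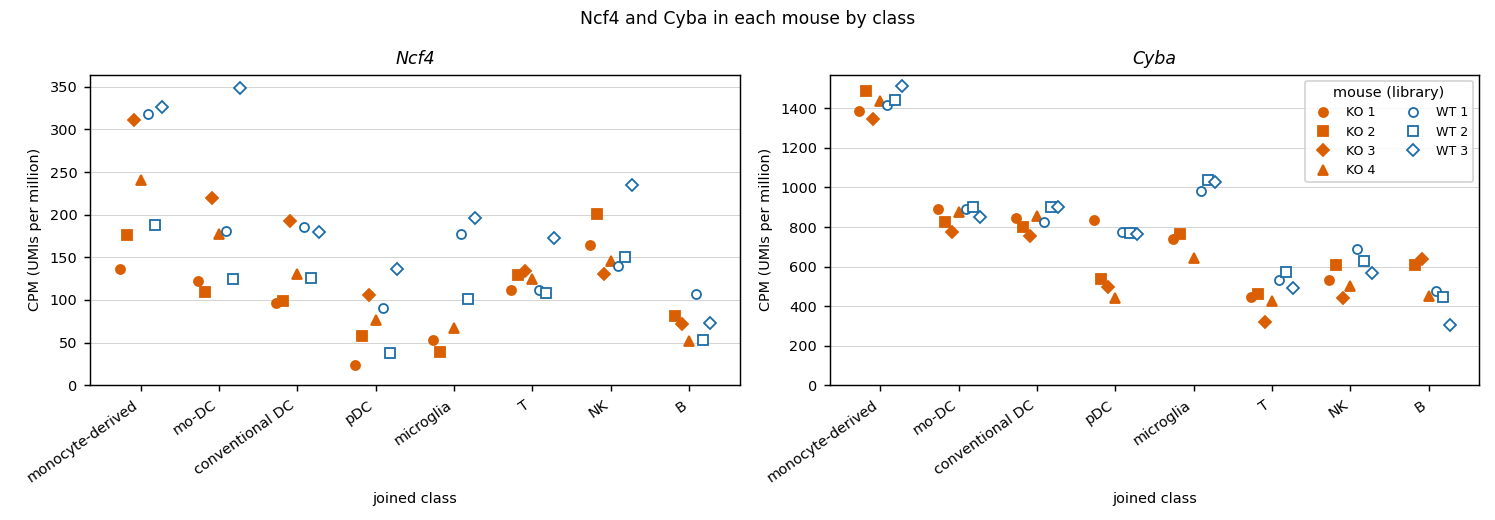
CPM (y axis) of Ncf4 (left) and Cyba (right) in each mouse with at least 20 cells of the class (x axis); filled orange symbols are KO and open blue symbols WT libraries. In microglia the KO libraries lie at 39.1 to 66.6 for Ncf4 and 644 to 763 for Cyba, below the WT libraries at 101 to 196 and 982 to 1036.

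Cyba was lower in the T cells of each KO mouse than of each WT mouse, at 445, 459, 321 and 426 against 530, 571 and 491 CPM, where 4.23% of genes were so in T cells. The log2 change was -0.32 ± 0.15 (edgeR adjusted p = 0.763). In exhausted CD8 cells, with 2 WT libraries, it was -0.68 ± 0.20 (0.744), and in Tregs -0.47 ± 0.19 (0.905). The makeup of the T cells differed between the mice too: precursor-exhausted CD8 cells were 23.5%, 41.0%, 53.8% and 33.1% of T cells in KO 1 to 4 and 6.75%, 10.6% and 35.4% in WT 1 to 3. Within that name alone Cyba lay at 300.2 to 417 CPM in KO and 449 to 499 in WT mice, a log2 change of -0.32 ± 0.16 (edgeR adjusted p = 1.00). The share of all genes without overlap in that name is not given here. The part of the makeup in the T cell difference was not tested. In pDCs Cyba lay at 837, 538, 495 and 443 in KO 1 to 4 and at 777, 772 and 766 in WT 1 to 3, so that KO 1 alone joined the WT mice (-0.40 ± 0.18, 0.774). Rac2 in tumour or stromal cells lay at 16.7 and 23.6 in KO 2 and 4 and at 4.78, 8.74 and 2.52 in WT 1 to 3 (1.96 ± 0.46, 0.238), where 12.0% of genes lay higher without overlap. It was called (0.00292) without a filter on low counts, where the share of all genes called is not given here. Summed T cell markers in these cells were 46.2 and 96.3 in KO and 3.82 to 11.8 in WT libraries, and their part in this was not tested.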

How the data were processed

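The 5 members and all gene lists were chosen with earlier results of these data known. The authors deposited a matrix of expected counts, UMIs per gene and cell that are not scaled. The submitters' processing notes name STARsolo, STAR 2.7.10a, FastQC 0.11.5 and the build mm10, with no roles. Of its values above 0, 7.51% were not whole, none of them in the members, and summed values were rounded for the tests. Strand, cell filters and doublet handling are not given in the sources used here. A deposited cell table holds, per its header, the cell type name, the library, the count of detected genes and the percentage of mitochondrial and ribosomal UMIs, as the authors computed them.

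UMIs were summed per mouse and cell type name, or per 9 joined classes, with at least 20 cells. Sums were tested with edgeR 4.0.16 (TMM, filterByExpr, robust quasi-likelihood test, R 4.3.3), with the mouse as a block between populations, and adjusted by Benjamini-Hochberg over all genes tested. DESeq2 1.42.0 was an alternative. The tests were checked on simulated data, and the outcome is not given here. Shares of cells were taken after thinning to the 25th percentile of UMIs per cell. The named genes were the members, Rac1, up to 4 called genes per list and direction, and the 3 genes most like each member. A further item is not reported here. Intervals of the levels are spreads over libraries.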

Additional observations from a re-analysis of the deposited data

Results flagged for a closer look

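Rac2 in NK cells of KO 3 stood apart from the other KO mice, at 1070.1 CPM (UMIs per 1000000) against 991.9, 989.7 and 988.9 in KO 1, 2 and 4. Its gap to the nearest of these exceeded Dixon's 95% limit for 4 samples. The WT mice lay at 864, 1034 and 1014. In all, 30 groups of 4 KO libraries were examined in this way, and chance flags about 1 in 20.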

How the results depend on the processing

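Of 1177 refits of single-gene changes, 1090 kept their direction and side of the threshold, 53 lost a call, 10 gained one and 24 changed sign. Member calls between the genotypes in the joined classes numbered 0, 2 without a filter on low counts (Ncf4 in microglia, Rac2 in tumour cells) and 0 to 1 when 1 library was left out, with the 1 without WT 2. Calls fell from 3 to 1 in Macrophages (P3), both with library totals and with no mouse block, and from 5 to 3 in Macrophages (P5) with library totals. They fell from 5 to 1 (WT libraries alone) and 3 (no mouse block) in NK against T cells, and from 3 to 0 in exhausted CD8 cells (WT libraries alone, 2 mice). They rose from 0 to 1 in DESeq2 for the KO effect in microglia minus that in monocyte-derived cells. The shares of all genes called under these other settings are not given here. The WT fits held fewer mice, and the cause of these changes in the number of calls was not tested.

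The changes that turned sign are given as log2 values. For KO against WT in monocyte-derived cells, Rac2 was -0.011 without the filter and -0.0042 with sex as a term, and leaving out 1 library gave -0.051 to 0.066 for Rac2, -0.075 to 0.030 for Cyba and -0.16 to 0.0030 for Ncf1. In microglia Ncf1 ran from -0.40 to 0.042. Ncf1 in microglia against monocyte-derived cells was -0.058 without the filter. In Macrophages (P3), library totals gave 0.00098 for Cyba, 0.045 for Rac2 and 0.017 for Rac1, no mouse block gave 0.010 for Rac2, and leaving out 1 library gave -0.075 to 0.0096 for Rac2. In Macrophages (P5) Rac1 was 0.11 with library totals, 0.022 without the filter and -0.065 to 0.012 when 1 library was left out. With WT libraries alone Cyba was -0.085 in B against T cells and 0.38 in exhausted CD8 cells. The genotype difference of Ncf1 between microglia and monocyte-derived cells was 0.11 with library totals, 0.025 without cells of very high UMI count and -0.25 to 0.16 when 1 library was left out.

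The labels do not say whether replicate numbers pair the mice. Deviations of same-numbered libraries correlated at -0.21 to 0.13, over too few pairs to settle it. With the replicate block, 0 members were called and Ncf4 in microglia was -1.62 (edgeR adjusted p = 0.258). Shares of cells with a UMI depend on depth: 36 of 50 moved beyond their spread at another depth or without thinning. Microglial values rest on 21 to 113 cells per library, and those of the low-quality name on 20 to 69. The comparison of the authors' Microglia with monocyte-derived cells was chosen after seeing the data.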
